A study of Mus musculus with 11 samples.

Results

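The comparison was azoramide against DMSO in control islets, which took 6 of the 11 libraries in the series: 3 labelled control with azoramide and 3 labelled control with DMSO, chosen by their sample titles. The control islets came from littermates of mice with a beta cell deletion of Zzef1, named βZKO_Mip, and the sources used here name neither the strain nor the alleles of the littermates themselves. Both groups of mice were 16 weeks old and had been on a high-fat diet for 4 weeks, so every library reflects islets of diet-fed animals. Isolated islets received azoramide (10 µM) or its solvent, DMSO, over 24 h, and the islets in a sample were pooled from 3 or more mice of 1 genotype. The labels do not say whether a DMSO and an azoramide sample share mice, and p-values therefore measure only the spread between these samples. Whole islets hold alpha, delta, PP, endothelial and other cells besides beta cells, and in such bulk RNA fewer cells of a type cannot be told apart from less RNA per cell.

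Azoramide is known as a small molecule that raises the protein folding capacity of the endoplasmic reticulum (ER). Beta cells fold large amounts of proinsulin in the ER and depend on the unfolded protein response (UPR), in which the sensors IRE1, PERK and ATF6 detect unfolded protein and raise chaperones, ER-associated degradation and, through PERK, the transcription factor ATF4. Small molecules can also reach receptors for foreign compounds, such as the aryl hydrocarbon receptor, whose classic target is the enzyme gene Cyp1a1.

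Before single genes, properties of the libraries that touch all of them are given. Library totals ran from 16832800 to 19501813 counts over the 6 libraries, and the first principal component of all 11 libraries, with 38.2% of the variance, put every azoramide library on the other side from every DMSO library. Levels are in CPM, read counts scaled to the library's total after that total was adjusted by a TMM factor. DMSO library 2 stood apart on the second component (11.8% of the variance). Its summed level of 20 acinar cell markers was 6867 CPM against 1734 and 1212 CPM in the other DMSO libraries and 2385 to 6361 CPM with azoramide. Mitochondrially encoded genes took 5.38% to 5.50% of counts with DMSO and 7.16% to 8.51% with azoramide, and cytosolic ribosomal protein genes 1.85% to 1.96% and 2.98% to 3.09%. Fold changes also went with transcript length. The median log2 fold change was 0.45 for the 480 genes with 500 to 999 exonic bases, of which 159 rose and 6 fell. It was -0.20 for the 2571 genes with 8000 or more, of which 225 rose and 1039 fell. Across genes the Spearman rho was -0.34 with exonic length and -0.31 with GC content, a description over genes that share the same libraries. Values are therefore also given with an offset that removes what each library's levels share with exonic length and GC content. Such an offset removes a response that goes with length as well as a technical effect of length, and the 2 cannot be told apart here.

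**Figure D1:**
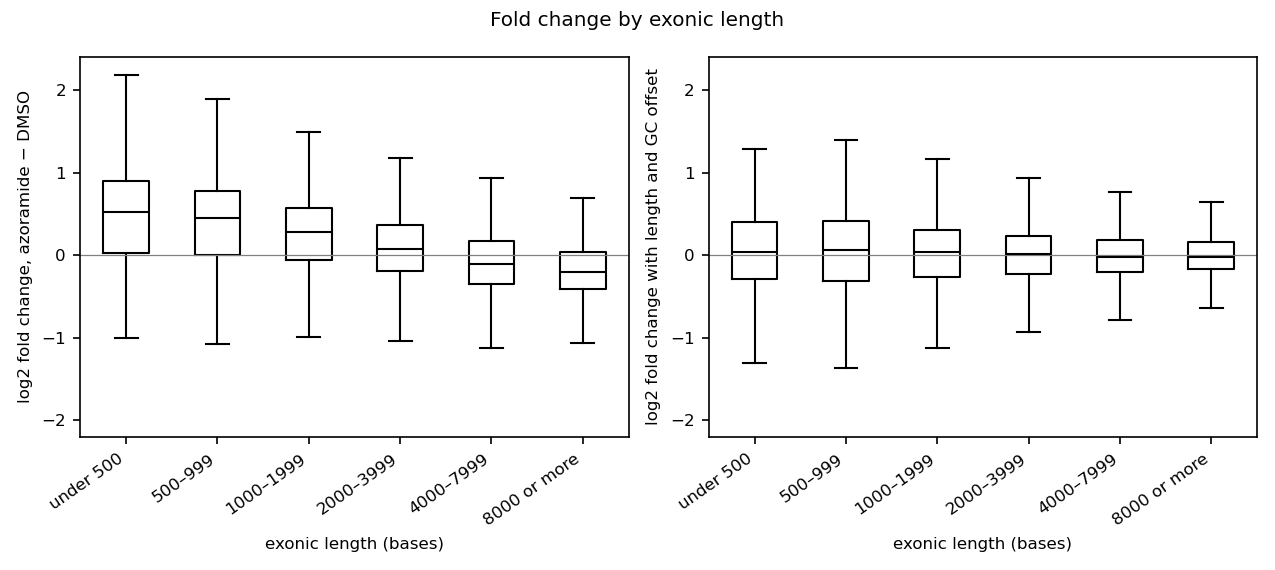
Log2 fold change of azoramide minus DMSO in control islets by exonic length class, as fitted (left) and with the length and GC offset (right); boxes span the quartiles, the line is the median and whiskers reach 1.5 times the box without outlying genes. On the left the class medians fall from 0.53 for genes under 500 bases to -0.20 for genes of 8000 or more, and on the right they lie between -0.02 and 0.06.

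With 3 libraries against 3, 5893 of 15093 genes tested passed an edgeR adjusted p of 0.05, which is 39.0% of genes. Of them 2908 rose (19.3%) and 2985 fell (19.8%), and these shares are the background for the counts below that come from this fit. Most changes were small: 266 called genes (1.76%) reached 2-fold, 137 upward and 129 downward, and the median size among called genes was 0.44 on the log2 scale. The 3 azoramide libraries all lay above the 3 DMSO libraries in 3591 genes (23.8%) and all below them in 3716 (24.6%). The balance of rises and falls rests on the scaling. With library totals in place of TMM factors the median of all genes moved by -0.17, and 24.8% of called genes rose in place of 49.3%. Of all 15093 genes 1628 then rose and 4943 fell. With the length and GC offset 60.5% of the called genes rose, and of all 15093 genes 2094 rose and 1366 fell. Counts given below for library totals or for the offset have these numbers as their background. Under all 4 scalings tried, 1236 genes rose and 1091 fell. Leaving out DMSO library 2 together with azoramide library 3 of those labelled knockout, which also stood apart, gave 6455 called genes and 426 at 2-fold.

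**Figure D2:**
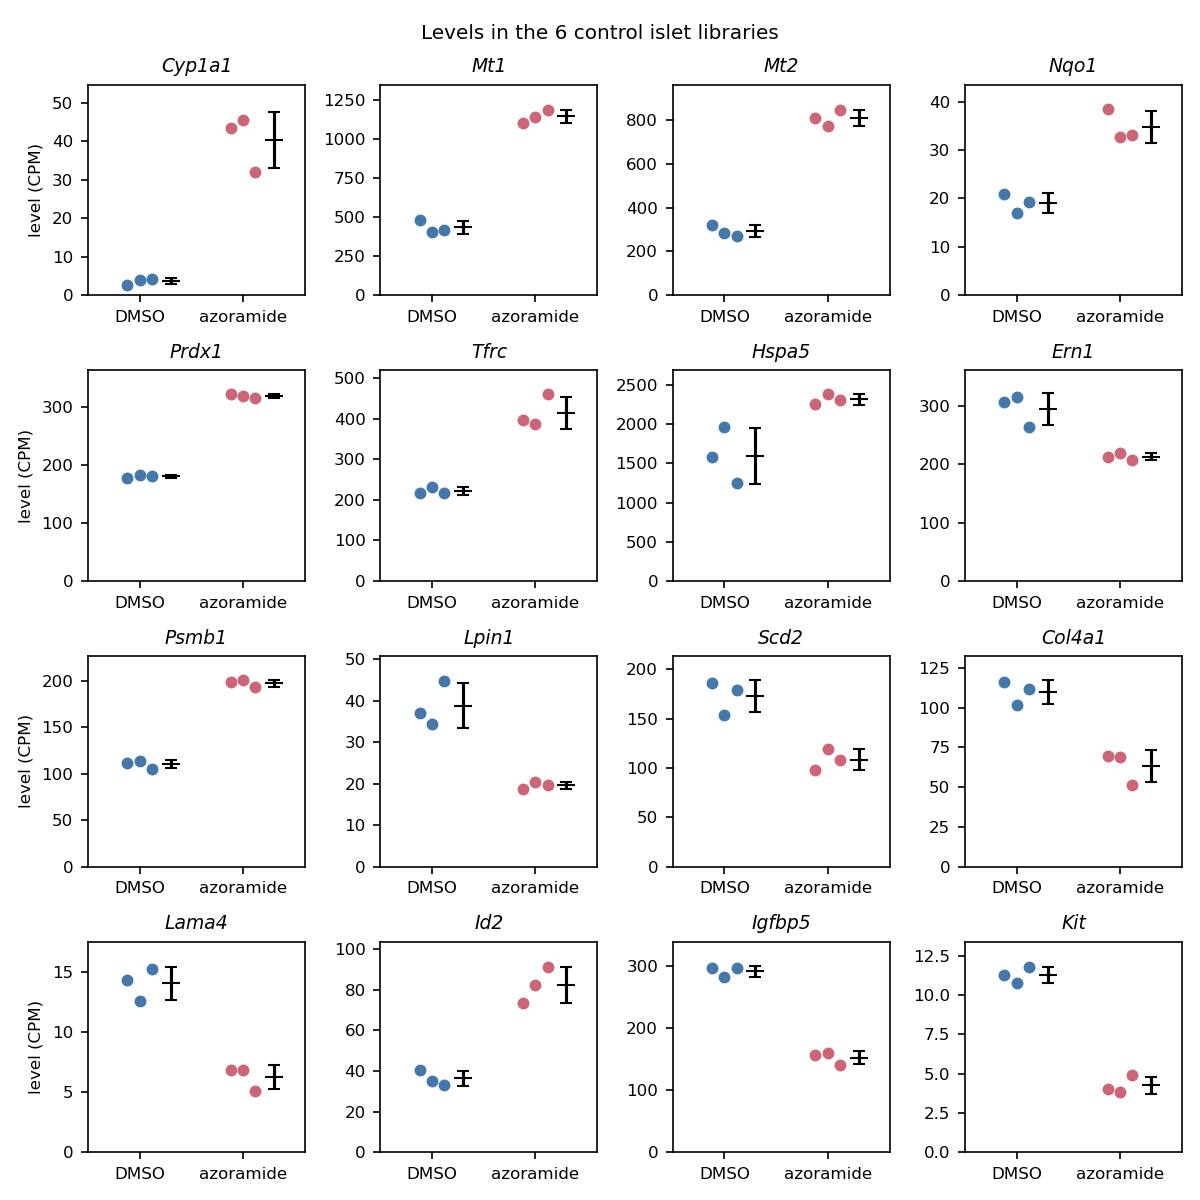
Levels (CPM, linear axes from 0) of 16 genes in the 3 DMSO libraries (blue) and 3 azoramide libraries (red) of control islets; black bars give the mean ± SD. In each panel the 3 azoramide points lie outside the range of the 3 DMSO points.

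Genes for handling foreign compounds and metals included the largest rises. Cyp1a1, which encodes a cytochrome P450 that oxidises aromatic compounds (chromosome 9, 57687928 to 57703824, plus strand, GRCm38), was at 2.67, 4.01 and 4.16 CPM with DMSO and 43.4, 45.4 and 32.1 CPM with azoramide. The groups did not overlap, and the rise was 11.1-fold, with a log2 fold change of 3.47 (SE 0.17, edgeR adjusted p = 4.31e-09). Bare values in brackets and sizes of a rise or fall are, here and later, log2 fold changes of azoramide over DMSO. Of 12 tested genes of the aryl hydrocarbon receptor and its targets, 4 rose and 1 fell. The other rises included Nqo1, a quinone reductase (0.87), and Nfe2l2, the antioxidant regulator NRF2 (0.33). Arnt, the DNA-binding partner of the receptor, was the member that fell (-0.23), but it did not pass with the offset (edgeR adjusted p = 0.349). Cyp1b1, another classic target, did not pass the filter on low counts, with 12 counts over the DMSO libraries together and 14 over the azoramide libraries. Among 29 other enzymes and transporters of foreign compounds 9 rose and 2 fell. The glucuronosyltransferase Ugt2b35 was at 8.57, 9.61 and 6.71 CPM with DMSO and 18.5, 24.6 and 20.01 CPM with azoramide, a rise of 1.34 (SE 0.16, edgeR adjusted p = 9.47e-06). Its relative Ugt2b34 rose by 0.65, although reads of such close relatives cannot be separated with certainty. Gstm5, a glutathione transferase (0.58), and Cyp2j6, a P450 (0.58), also rose. The falls were the export pumps Abcc2 (-1.13) and Abcc1 (-0.24). Abcc2 did not pass without any 1 of DMSO libraries 1 and 3 or without azoramide library 3 (edgeR adjusted p up to 0.0941). Abcc1 did not pass with the offset, without DMSO library 1 or without any 1 of azoramide libraries 2 and 3 (edgeR adjusted p up to 0.384), and its sign turned with the offset (0.12). Rdh1, a retinol dehydrogenase, was at 1.17, 1.14 and 1.11 CPM with DMSO and 2.996, 2.94 and 2.83 CPM with azoramide and rose by 1.35 (SE 0.30, edgeR adjusted p = 0.00167).

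The metallothioneins Mt1 and Mt2, small proteins that bind zinc and copper, moved together. Mt1 (chromosome 8, 94179082 to 94180327, plus strand, GRCm38) was at 482, 405 and 417 CPM with DMSO and 1104, 1140 and 1185 CPM with azoramide. Mt2 (chromosome 8, 94172664 to 94173568, plus strand, GRCm38) was at 323, 282 and 271 CPM with DMSO and 811, 775 and 846 CPM with azoramide. Neither gene's groups overlapped, and the log2 fold changes were 1.40 (SE 0.07, edgeR adjusted p = 3.41e-09) and 1.47 (SE 0.08, edgeR adjusted p = 4.31e-09). Of 21 tested genes of metallothioneins and zinc transport, 4 rose and 2 fell, a share near the background. Besides the metallothioneins the zinc transporters Slc39a11 (0.39) and Slc30a4 (0.37) rose, and Slc39a14 (-0.36) and Slc39a6 (-0.29) fell. Slc30a4 and Slc39a14 did not pass with the offset (edgeR adjusted p = 0.0708 and 0.681), and Slc39a11 did not pass with library totals (edgeR adjusted p = 0.0544). The 250 bases before the start of each metallothionein gene are shown because metallothionein promoters are known for metal response elements. Capitals mark the core of that element, searched as TGCACNC or TGCGCNC on both strands, in RefSeq promoter sequence of GRCm38.p6 written 5′ to 3′ on the gene's strand and counted from the RefSeq start, which differs from the start of the GENCODE gene model given above, chr8:94178839-94179088 for Mt1 and chr8:94172368-94172617 for Mt2, both on the plus strand.
Mt1: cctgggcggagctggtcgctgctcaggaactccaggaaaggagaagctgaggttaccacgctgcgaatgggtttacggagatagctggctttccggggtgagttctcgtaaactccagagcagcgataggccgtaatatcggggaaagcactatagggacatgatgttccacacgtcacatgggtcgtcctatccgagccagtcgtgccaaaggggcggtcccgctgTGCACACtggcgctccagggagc
Mt2: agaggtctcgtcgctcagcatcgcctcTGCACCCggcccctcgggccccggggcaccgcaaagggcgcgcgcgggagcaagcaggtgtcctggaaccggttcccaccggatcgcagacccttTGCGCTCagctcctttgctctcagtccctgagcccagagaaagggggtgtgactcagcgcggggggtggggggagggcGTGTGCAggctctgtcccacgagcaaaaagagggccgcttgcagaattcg
In these windows Mt1 holds 1 match, 23 to 17 bases before its RefSeq start. Mt2 holds 3, of which the nearest is 50 to 44 bases before its RefSeq start. Bases outside the windows were not searched, so these are not counts for whole promoters. The core is short, and 21.3% of the 27025 promoters in the table hold at least 1 match in the same 250 bases. Of the 3451 tested genes with a match, 18.5% rose and 24.4% fell.

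Many antioxidant genes rose. Of 38 tested genes of the NRF2 and antioxidant list, 22 rose and 0 fell, with a median log2 fold change of 0.34 beside -0.02 for all genes tested. The peroxiredoxin Prdx1 was at 178, 183 and 182 CPM with DMSO and 324, 319.5 and 317 CPM with azoramide, a rise of 0.82 (SE 0.06, edgeR adjusted p = 1.92e-08). Gpx4, the glutathione peroxidase that removes lipid peroxides, was at 147, 148 and 146 CPM with DMSO and 251, 251 and 282 CPM with azoramide, a rise of 0.83 (SE 0.07, edgeR adjusted p = 1.47e-07). The superoxide dismutase Sod1 rose by 0.65 and thioredoxin, Txn1, by 0.71. In each of these genes every azoramide library lay above every DMSO library. Hmox1, heme oxygenase and a common marker of NRF2 activity, was at 236, 254 and 151 CPM with DMSO and 272, 207 and 213 CPM with azoramide, so its groups overlapped, and it did not pass the threshold. Its log2 fold change was 0.11 (SE 0.19, edgeR adjusted p = 0.702), with a sign that turned under several settings. With the offset the list's median was 0.32, with 20 rises and 1 fall, that of Me1 (-0.27). Of 21 genes of iron handling 6 rose and 2 fell. The transferrin receptor Tfrc, which brings iron into cells, was at 216, 232 and 216 CPM with DMSO and 397, 387 and 459.6 CPM with azoramide, a rise of 0.90 (SE 0.07, edgeR adjusted p = 3.83e-08) without overlap. The ferritin light chain Ftl1, which stores it, rose by 0.58.

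ER genes moved in both directions: chaperones, foldases and the entry machinery of the ER rose, and more genes of the UPR sensors and factors fell than rose. Of 28 tested chaperones and foldases 20 rose and 0 fell (median 0.39, and 0.30 with the offset). Hspa5, the chief ER chaperone BiP (chromosome 2, 34771970 to 34777547, plus strand, GRCm38), was at 1586, 1965 and 1251 CPM with DMSO and 2252, 2388 and 2313 CPM with azoramide. Hsp90b1, the ER form of HSP90 (chromosome 10, 86690209 to 86705509, minus strand, GRCm38), was at 1183, 1304 and 956 CPM with DMSO and 1875, 2105 and 2159 CPM with azoramide. Both rose, by 0.53 (SE 0.13, edgeR adjusted p = 0.00733) and 0.83 (SE 0.17, edgeR adjusted p = 0.00557), and DMSO library 2 was the highest of the DMSO libraries in both. The list's smallest p-values belonged to Selenof (0.97), a selenoprotein of folding quality control, the prolyl isomerases Fkbp2 (0.75) and Ppib (0.68), and the disulphide isomerase Pdia3 (0.76). With library totals as the scale 12 of the chaperones rose and 2 fell. Of 33 genes of the translocon, signal peptidase and N-glycosylation 25 rose and 0 fell. Sec61g, a subunit of the channel through which new proteins enter the ER, was at 90.95, 97.8 and 75.3 CPM with DMSO and 218, 227 and 235 CPM with azoramide, a rise of 1.36 (SE 0.10, edgeR adjusted p = 1.95e-07). Dad1, a subunit of the enzyme that attaches N-glycans, rose by 1.10, the signal peptidase Sec11c by 1.02 and Srp9 of the signal recognition particle by 0.91.

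Promoters of the 2 major ER chaperones are shown because both are known to carry ER stress elements, to which ATF6 binds. Capitals mark CCAAT and CCACG with the 9 bases between them, searched on both strands, in RefSeq sequence of GRCm38.p6 for the 250 bases before each RefSeq start, chr2:34771840-34772089 on the plus strand for Hspa5 and chr10:86705445-86705694 on the minus strand for Hsp90b1.
Hspa5: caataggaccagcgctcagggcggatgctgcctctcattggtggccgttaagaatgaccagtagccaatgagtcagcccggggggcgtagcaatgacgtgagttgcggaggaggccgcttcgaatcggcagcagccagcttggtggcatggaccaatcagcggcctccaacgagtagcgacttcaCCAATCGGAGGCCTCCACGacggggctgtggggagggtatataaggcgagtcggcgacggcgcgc
Hsp90b1: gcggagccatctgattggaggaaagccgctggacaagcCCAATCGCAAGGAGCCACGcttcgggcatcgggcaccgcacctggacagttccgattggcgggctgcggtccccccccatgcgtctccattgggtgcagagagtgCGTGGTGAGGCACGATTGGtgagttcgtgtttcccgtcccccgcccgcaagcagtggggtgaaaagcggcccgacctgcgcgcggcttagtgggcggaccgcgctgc
The element matched 65 to 47 bases before the start of Hspa5, and at 2 places, 212 to 194 and 107 to 89 bases before the start, in Hsp90b1. It is rare: 33 of 27025 promoters (0.122%) and 17 of the 11543 tested genes with a promoter in the table held it. Of these 17 genes, picked by sequence alone, 8 rose and 2 fell, and with the offset 5 rose and 1 fell. The rises were Hspa5, Hsp90b1, Pdia6 (0.81), Calr (0.58), Dnajc3 (0.38), Creld2 (0.30) and Canx (0.23), all on the chaperone list, and the RNA-binding protein gene Hnrnpa3 (0.21). The falls were Syvn1 (-0.42), the ubiquitin ligase HRD1 of ER-associated degradation, and Pan2 (-0.52), a deadenylase subunit. Canx, Creld2, Hnrnpa3 and Syvn1 did not pass with the offset (edgeR adjusted p from 0.122 to 0.825). Leaving out single libraries or scaling by library totals also ended calls: Creld2 did not pass with library totals, with the offset, without any 1 of DMSO libraries 1 and 3 or without any 1 of azoramide libraries 2 and 3 (edgeR adjusted p up to 0.407), Hnrnpa3 did not pass with library totals, with the offset, without any 1 of DMSO libraries 1 and 3 or without azoramide library 1 (edgeR adjusted p up to 0.825) and Canx did not pass with library totals or with the offset (edgeR adjusted p up to 0.474).

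The sensors and their transcription factors went the other way. Of 16 tested genes 3 rose and 9 fell (median -0.25, and -0.07 with the offset, where 3 rose and 6 fell). Ern1, which encodes IRE1, was at 306, 315 and 264 CPM with DMSO and 213, 219 and 207 CPM with azoramide. Eif2ak3, which encodes PERK, was at 102, 106 and 101 CPM with DMSO and 78.2, 80 and 83.4 CPM with azoramide. In both genes all azoramide libraries were below all DMSO libraries, and the log2 fold changes were -0.47 (SE 0.07, edgeR adjusted p = 6.59e-05) and -0.36 (SE 0.06, edgeR adjusted p = 8.35e-05). Atf6 was at 232, 254 and 199.5 CPM with DMSO and 205, 193 and 197 CPM with azoramide, with overlapping groups, and its log2 fold change was -0.20 (SE 0.08, edgeR adjusted p = 0.0476), but the gene did not pass with the offset, with DESeq2 size factors, with DESeq2, in a fit of the 6 control libraries alone, without any 1 of DMSO libraries 1 and 2 or without any 1 of azoramide libraries 1, 2 and 3 (edgeR adjusted p up to 0.498). Creb3l2 (-0.54), a factor related to ATF6, and Mbtps1 (-0.46), the protease that activates ATF6, fell. The rises were Creb3 (0.64), a related factor, Ddrgk1 (0.21), an ER protein of the ufmylation pathway, and Rtcb (0.46), the ligase that joins spliced Xbp1 RNA. Ddrgk1 did not pass with library totals, without DMSO library 3 or without any 1 of azoramide libraries 2 and 3 (edgeR adjusted p up to 0.653). Total Xbp1, which does not separate spliced from unspliced RNA, was at 329.7, 358 and 294 CPM with DMSO and 339.5, 346 and 353 CPM with azoramide and did not pass. Its log2 fold change was 0.08 (SE 0.06, edgeR adjusted p = 0.345), and it was -0.08 with library totals. Without DMSO library 2 it passed, at 0.15 (edgeR adjusted p = 0.0489). Of 27 genes of ER-associated degradation 7 rose and 5 fell, shares near the background. With library totals 1 rose and 11 fell, and the median turned from 0.08 to -0.09. Sel1l, the partner of HRD1, was at 269, 245 and 253 CPM with DMSO and 191, 178 and 179.5 CPM with azoramide and fell by 0.48 on the log2 scale (SE 0.07, edgeR adjusted p = 2.07e-05). Of 34 ATF4 and CHOP targets 5 rose and 8 fell, a balance that rests on single libraries and on the scaling. Without DMSO library 2, 11 rose and 6 fell, and the median turned from -0.08 to 0.12. Without DMSO library 3, 3 rose and 12 fell, and 2 rose without any 1 of azoramide libraries 1 and 2. With library totals 2 rose and 12 fell, and with the offset 2 rose and 3 fell. Asns, asparagine synthetase, rose (0.49), the amino acid transporter Slc7a5 (-0.44) and the stress protein Sesn2 (-0.44) fell. Trib3, a pseudokinase raised by CHOP, was at 92.2, 112 and 62.3 CPM with DMSO and 95.1, 85.8 and 72.4 CPM with azoramide and did not pass the threshold. Its log2 fold change was -0.08 (SE 0.22, edgeR adjusted p = 0.823), with a sign that turned to 0.13 without DMSO library 2 and to 0.02 without azoramide library 3. Of 23 aminoacyl-tRNA synthetases and their scaffold proteins 12 rose and 2 fell, among the rises Aimp1 (0.76), Farsb (0.65) and Dars (0.57).

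**Figure D3:**
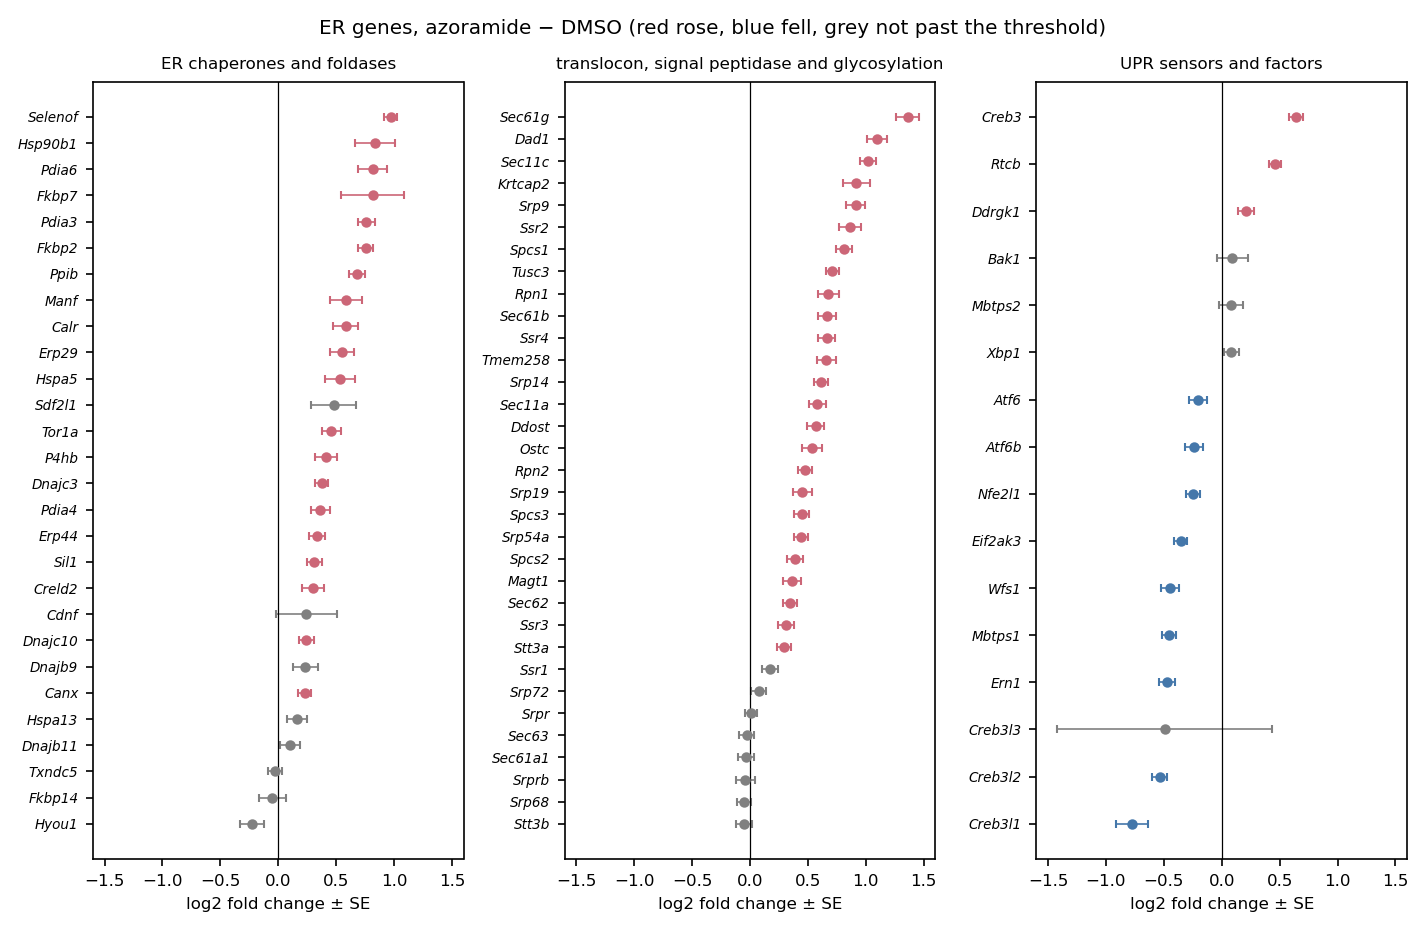
Log2 fold change ± SE, azoramide minus DMSO in control islets, of every tested member of 3 ER lists. Red points rose, blue points fell and grey points did not pass an edgeR adjusted p of 0.05; the chaperone and translocon lists hold 20 and 25 red points and no blue ones, and the list of sensors and factors holds 9 blue and 3 red.

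Most genes of protein synthesis and of the proteasome rose, and genes of other routes of protein breakdown moved in both directions. All 49 tested genes of the large and all 33 of the small cytosolic ribosomal subunit rose, with medians of 0.87 and 0.89 (0.69 and 0.65 with the offset, where Rplp2 alone did not pass). Rps29 was at 130.2, 135 and 127 CPM with DMSO and 259.8, 256 and 267 CPM with azoramide, a rise of 1.0 (SE 0.05, edgeR adjusted p = 3.41e-09). Ribosomal protein genes have many processed copies in the genome, and the sources used here do not say how reads of such copies were counted. They name no strand setting either, and 57 of the 173 genes named here overlap another annotated gene, such as Col4a1 with Col4a2, Syvn1 with Mrpl49 and Taf9 with Ak6, whose reads cannot be told apart from theirs with certainty. Of 40 translation factors 24 rose and 3 fell. Eef1b2, an elongation factor subunit, rose by 0.82, and the falls were Eif4g3 (-0.58), Eif4g1 (-0.22) and the kinase Eef2k (-0.49), of which Eef2k did not pass with the offset (edgeR adjusted p = 0.0572) and Eif4g1 did not pass with the offset or without azoramide library 1 (edgeR adjusted p up to 0.375), and the sign turned with the offset (0.07). Of 41 proteasome genes 35 rose and 0 fell, and the counts were the same with the offset (median 0.65, and 0.47 with it). Psmb1, a subunit of the catalytic core, was at 112, 114 and 106 CPM with DMSO and 199, 200.3 and 193 CPM with azoramide, a rise of 0.84 (SE 0.06, edgeR adjusted p = 9.04e-09), and Psma3 rose by 0.87. Of 34 cytosolic chaperones 21 rose and 1 fell. Hspa8, the constitutive HSP70, was at 890.2, 1076 and 827 CPM with DMSO and 1633, 1606 and 1568 CPM with azoramide, a rise of 0.78 (SE 0.08, edgeR adjusted p = 1.22e-06). The prefoldin subunit Pfdn5 (0.79) and the chaperonin subunit Cct5 (0.60) rose. The member that fell was Hsf1, the heat shock transcription factor (-0.30), and it did not pass with the offset, without any 1 of DMSO libraries 1 and 3 or without any 1 of azoramide libraries 2 and 3 (edgeR adjusted p up to 0.846). The vacuolar proton pump, which acidifies lysosomes and granules, had 14 rises and 1 fall among 19 genes, the fall being Atp6v0a1 (-0.27). Of 39 lysosomal genes 15 rose and 7 fell, and 2 fell with the offset. The protease Ctsb was at 534, 620.4 and 483 CPM with DMSO and 974, 1023 and 1004 CPM with azoramide, a rise of 0.87 (SE 0.08, edgeR adjusted p = 3.89e-07). Of 34 autophagy genes 10 rose and 8 fell. With library totals 6 rose and 13 fell, and with the offset 4 fell. Gabarap (0.73), an autophagosome protein that is lipidated, and Atg5 (0.73), part of the machinery that lipidates such proteins, rose. Atg2b (-0.61), a lipid transfer protein, fell.

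Nuclear genes of the respiratory chain rose almost without exception. All 37 nuclear subunits of complex I rose (median 0.76), as did 39 of 42 of complexes II to V (median 0.74). Ndufa4 was at 59.6, 59.1 and 57.1 CPM with DMSO and 123, 115 and 129 CPM with azoramide. Cox6b1, a subunit of cytochrome oxidase, was at 76.3, 80.7 and 75.2 CPM with DMSO and 160.0, 155 and 154 CPM with azoramide. Both rose without overlap, by 1.06 and 1.02. With the offset the medians were 0.49 and 0.49, and 34 and 36 genes rose. The mitochondrially encoded genes differed in this respect: 12 of 13 rose with a median of 0.75, but with the offset the median was 0.03 and 0 rose. These genes are cut from long shared transcripts. Mitochondrial ribosomal proteins (61 of 78) and import and stress genes (24 of 32) rose with no falls, among them Mrpl30 (0.91) and Timm8b (1.11). With the offset 40 of the mitochondrial ribosomal proteins rose. Of 37 genes of the citrate cycle and pyruvate 22 rose and 4 fell. Mpc1, a subunit of the carrier that brings pyruvate into mitochondria, was at 44.5, 41.9 and 40.1 CPM with DMSO and 86.3, 82.1 and 93.03 CPM with azoramide, a rise of 1.05 (SE 0.08, edgeR adjusted p = 2.66e-08). The falls were Pdk2 (-0.94), a kinase that inhibits pyruvate dehydrogenase, Pcx (-0.53), pyruvate carboxylase, Ogdh (-0.22) and Acly (-0.15). Ogdh did not pass with the offset or without azoramide library 1 (edgeR adjusted p up to 0.69), and Acly did not pass with the offset, with DESeq2 size factors, in a fit of the 6 control libraries alone, without any 1 of DMSO libraries 1 and 3 or without any 1 of azoramide libraries 1 and 3 (edgeR adjusted p up to 0.922), with its sign turned by the offset (0.01). Pdk4, another such kinase and a target of fatty acid receptors, was at 16.98, 20.2 and 16.5 CPM with DMSO and 32.7, 42.8 and 32.6 CPM with azoramide, a rise of 1.01 (SE 0.15, edgeR adjusted p = 0.000213). Among 28 genes of fatty acid oxidation 9 rose and 3 fell, with Hadha (0.35) and Etfb (0.54) higher. The falls were Ppard (-0.52), a fatty acid receptor, Ucp2 (-0.42) and Cpt1a (-0.36), which admits fatty acids to mitochondria, and Ucp2 and Cpt1a did not pass with the offset.

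Genes of lipid synthesis fell more often than they rose. Of 24 genes of fatty acid synthesis 2 rose and 10 fell (median -0.27). With the offset 1 rose, 5 fell and the median was -0.09, and without azoramide library 1 the median was -0.12. Lpin1, a phosphatidate phosphatase, was at 36.96, 34.5 and 44.9 CPM with DMSO and 18.7, 20.4 and 19.6 CPM with azoramide. The desaturase Scd2 was at 186, 154 and 179 CPM with DMSO and 97.8, 119 and 108 CPM with azoramide. In both genes every azoramide library was below every DMSO library, and the log2 fold changes were -0.98 (SE 0.11, edgeR adjusted p = 2.73e-06) and -0.67 (SE 0.08, edgeR adjusted p = 4.32e-06). Fads1, another desaturase, fell by 0.52, and Fasn, fatty acid synthase, by 0.60, the latter not past the threshold with the offset (-0.13, edgeR adjusted p = 0.0804). The rises were Elovl1 (0.48), which elongates fatty acids, and Thrsp (1.08), a regulator of lipid synthesis whose groups overlapped and which did not pass with library totals, with the offset, without any 1 of DMSO libraries 1 and 2 or without any 1 of azoramide libraries 2 and 3 (edgeR adjusted p up to 0.161). Of 32 genes of cholesterol synthesis and uptake 4 rose and 11 fell, and with the offset 3 rose and 5 fell. Ebp (0.62) and Msmo1 (0.45), enzymes of later steps of cholesterol synthesis, rose. Of 34 genes of glycolysis and hypoxia 1 rose and 10 fell, with a median of -0.33. That balance rests on DMSO library 1: without it 6 rose and 6 fell and the median was -0.09, and without any 1 of the azoramide libraries 6 fell, as did 6 with the offset. Ndrg1 (-0.48), a gene raised by low oxygen, and the phosphofructokinase Pfkm (-0.48) fell. Gapdh was at 1332, 1121 and 863 CPM with DMSO and 1624, 1605 and 1683 CPM with azoramide, with DMSO library 1 the highest of the DMSO libraries, and was the member that rose, by 0.57 (SE 0.13, edgeR adjusted p = 0.00712).

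More beta cell transcription factors and genes of nutrient and hormone sensing fell than rose. Of 25 tested beta cell transcription factors 1 rose and 17 fell (median -0.37), and with the offset 0 rose and 10 fell. Without azoramide library 3, 11 fell. The rise was St18 (0.29), which did not pass with library totals, with the offset, without any 1 of DMSO libraries 1 and 3 or without azoramide library 3 (edgeR adjusted p up to 0.29). Nkx6-1 was at 233, 179 and 224 CPM with DMSO and 127, 125 and 132 CPM with azoramide, a fall of 0.73 on the log2 scale (SE 0.09, edgeR adjusted p = 2.21e-05). Foxo1 was at 68.7, 57.9 and 69.8 CPM with DMSO and 43.5, 44.8 and 45.1 CPM with azoramide, a fall of 0.56 on the log2 scale (SE 0.09, edgeR adjusted p = 8.75e-05). Nkx2-2 was at 117, 103 and 111 CPM with DMSO and 78.1, 80.5 and 84.1 CPM with azoramide, a fall of 0.45 on the log2 scale (SE 0.07, edgeR adjusted p = 0.000153). None of these 3 genes had overlapping groups. Mafa, which drives insulin genes, was at 196, 160.4 and 200.4 CPM with DMSO and 88.5, 121 and 126 CPM with azoramide, and its log2 fold change was -0.74 (SE 0.18, edgeR adjusted p = 0.0133), but it did not pass with the offset or without DMSO library 3 (edgeR adjusted p up to 0.163). Of 30 genes of insulin receptor signalling 2 rose and 19 fell, 3 and 9 with the offset. Without azoramide library 2, 12 fell. Igfbp5, a binding protein for insulin-like growth factors, was at 297, 282 and 297 CPM with DMSO and 157, 160.1 and 141 CPM with azoramide, a fall of 0.94 on the log2 scale (SE 0.08, edgeR adjusted p = 1.06e-07). Insr, the insulin receptor, fell by 0.50 and the transcription factor Foxo3 by 0.54. The rises were Rheb, the activator of mTOR (0.64), and Eif4ebp1 (0.43), a brake on translation that did not pass with the offset (edgeR adjusted p = 0.186). Of 24 receptors of incretins and other signals 0 rose and 9 fell, and 4 fell with the offset. Glp1r was at 522, 372 and 638 CPM with DMSO and 326, 314 and 341 CPM with azoramide, and its log2 fold change was -0.64 (SE 0.17, edgeR adjusted p = 0.0189), but it did not pass with the offset, without DMSO library 1 or without any 1 of azoramide libraries 1 and 2 (edgeR adjusted p up to 0.0733). Of 29 genes of glucose sensing and excitability 2 rose and 15 fell, 3 and 6 with the offset. The calcium channel Cacna1d (-0.49) fell, and the rises were Trpm5 (0.83), a cation channel, and Kcnk3 (0.44), a potassium channel whose groups overlapped and which did not pass with library totals, in a fit of the 6 control libraries alone, without any 1 of DMSO libraries 1 and 3 or without any 1 of azoramide libraries 2 and 3 (edgeR adjusted p up to 0.271). Of 21 genes of ER calcium handling 5 rose and 7 fell, and with library totals 4 rose and 10 fell. With the offset 6 rose and 4 fell, and the median turned from -0.11 to 0.04. Among the falls were calcium pumps of the ER. Atp2a2 was at 1100, 1160 and 1071 CPM with DMSO and 808, 841 and 819 CPM with azoramide, a fall of 0.43 on the log2 scale (SE 0.05, edgeR adjusted p = 8.66e-06). Atp2a3 fell by 0.81 on the log2 scale (SE 0.09, edgeR adjusted p = 3.28e-06). Of the hormone genes Gcg, glucagon, was at 15286, 15372 and 13889 CPM with DMSO and 25831, 26868 and 23543 CPM with azoramide and rose by 0.78 (SE 0.07, edgeR adjusted p = 1.87e-07). With the offset the rise was 0.34. Ins1 fell by 0.46 on the log2 scale (SE 0.09, edgeR adjusted p = 0.000525), or by 0.86 with the offset. Iapp, which encodes the islet peptide amylin, was at 20529, 20009 and 20923 CPM with DMSO and 36686, 31299 and 36694 CPM with azoramide and rose by 0.77 (SE 0.06, edgeR adjusted p = 9.72e-08), but it did not pass with the offset (edgeR adjusted p = 0.344). Ppy, pancreatic polypeptide, was at 1764, 1043 and 1571 CPM with DMSO and 2100, 2134 and 2015 CPM with azoramide and rose by 0.51 (SE 0.17, edgeR adjusted p = 0.0444), but it did not pass with library totals, with the offset, in a fit of the 6 control libraries alone, without DMSO library 3 or without any 1 of azoramide libraries 1, 2 and 3 (edgeR adjusted p up to 0.481). Sst, somatostatin, was at 1808, 1633 and 1635 CPM with DMSO and 2012, 2130 and 1860 CPM with azoramide and did not pass. Its log2 fold change was 0.24 (SE 0.13, edgeR adjusted p = 0.181), and it was -0.02 with the offset. In a fit of the 6 control libraries alone it passed (edgeR adjusted p = 0.0171). Ins2 was at 85108, 85293 and 84295 CPM with DMSO and 127294, 95322 and 118437 CPM with azoramide and rose by 0.42 (SE 0.13, edgeR adjusted p = 0.0241), but it did not pass with library totals, with the offset, without any 1 of DMSO libraries 1, 2 and 3 or without any 1 of azoramide libraries 1 and 3 (edgeR adjusted p up to 0.437).

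Large regulators of chromatin fell together, and the length and GC offset ended many of these calls. Of 36 histone modifiers and coactivators, whose median exonic length was 13176 bases, 0 rose and 34 fell (median -0.47). Of all genes with 8000 or more exonic bases 40.4% fell. With the offset 15 of the 36 fell and the median was -0.16. Over all 15093 genes tested 1366 fell with the offset, a smaller share than in this list. The corepressor Ncor1 was at 265, 268 and 275 CPM with DMSO and 185, 191 and 182 CPM with azoramide, a fall of 0.54 on the log2 scale (SE 0.06, edgeR adjusted p = 3.91e-06), or 0.28 with the offset (edgeR adjusted p = 0.00149). The histone demethylase Kdm6b was at 109.9, 98.6 and 105 CPM with DMSO and 66.8, 59.1 and 60.7 CPM with azoramide, a fall of 0.75 on the log2 scale (SE 0.09, edgeR adjusted p = 7.65e-06). Ubiquitin ligases and cullins had 2 rises and 16 falls among 30 genes, but 3 falls with the offset, near the share of all genes that fell with it. Herc2 fell by 0.60, and the rises were the small ligase subunits Rbx1 (0.45) and Skp1a (0.42, not past the threshold with the offset). Of 34 genes of RNA polymerase II and Mediator 16 rose and 8 fell, but with library totals 9 rose and 12 fell, and with the offset 8 rose and 4 fell. Polr2a, the largest polymerase subunit, was at 185, 172 and 187 CPM with DMSO and 121, 129 and 128 CPM with azoramide, a fall of 0.53 on the log2 scale (SE 0.07, edgeR adjusted p = 1.04e-05). Polr2f, a small subunit of the same enzyme, was at 20.7, 22.6 and 21.9 CPM with DMSO and 40.2, 34.7 and 40.7 CPM with azoramide, a rise of 0.83 (SE 0.09, edgeR adjusted p = 1.58e-06). Clock genes had 1 rise and 9 falls among 21, and 1 and 2 with the offset, the rise being Clock (0.20), which did not pass with library totals (edgeR adjusted p = 0.731). With library totals 0 rose and 15 fell. Without DMSO library 2 the clock list had 15 falls. Bhlhe41, a repressor in the clock, was at 88.4, 66.8 and 79.1 CPM with DMSO and 59.3, 60.1 and 59.96 CPM with azoramide and fell by 0.38 on the log2 scale (SE 0.08, edgeR adjusted p = 0.00118).

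Genes of the extracellular matrix and of cell signalling at the surface fell. Of 36 tested genes for collagens, laminins and other matrix proteins 0 rose and 19 fell (median -0.58). With the offset 1 rose, 10 fell and the median was -0.28. Col4a1, a collagen of basement membranes, was at 116, 101 and 112 CPM with DMSO and 69.4, 69.3 and 51.6 CPM with azoramide. The laminin Lama4, made mainly by vessels, was at 14.3, 12.5 and 15.2 CPM with DMSO and 6.87, 6.80 and 5.11 CPM with azoramide. In both every azoramide library was below every DMSO library, and they fell by 0.79 on the log2 scale (SE 0.10, edgeR adjusted p = 2.74e-05) and 1.16 on the log2 scale (SE 0.15, edgeR adjusted p = 1.03e-05). Markers of cells that make matrix are given beside them. Of 17 endothelial markers 8 fell and 2 rose, and their summed level was 519 to 553 CPM with DMSO and 451 to 542 CPM with azoramide. Of 14 stellate and fibroblast markers 4 fell and 1 rose, at 155 to 159 CPM with DMSO and 131 to 152 CPM with azoramide. With the offset 3 endothelial markers fell and 1 rose, and 2 stellate and fibroblast markers fell and 0 rose. The medians of the endothelial and stellate lists were then -0.21 and 0.01 in place of -0.33 and -0.21. Col1a1 and Sparc stand on both the matrix and the stellate list. The part of these cells in the fall of the matrix genes was not tested. Sparc (-0.42) and Pdgfrb (-0.87) fell among the stellate markers, and Tie1 (-0.77) fell and Nostrin (1.27) rose among the endothelial ones. Of 33 genes of the Notch, Wnt and Hippo pathways 0 rose and 15 fell, and 6 fell with the offset. The Notch ligand Dll4, at home in vessels, was at 22.2, 18.5 and 23.02 CPM with DMSO and 10.2, 11.4 and 9.003 CPM with azoramide, a fall of 1.06 on the log2 scale (SE 0.14, edgeR adjusted p = 1.33e-05). Genes of the TGF-beta and BMP pathways had 4 rises and 12 falls among 35. The rises were the BMP target genes Id2, Id3 and Id1 and the BMP signal carrier Smad9 (0.86). Id2 was at 40.7, 35.3 and 33.1 CPM with DMSO and 73.4, 82.6 and 91.2 CPM with azoramide, a rise of 1.18 (SE 0.09, edgeR adjusted p = 8.76e-08). Id3 was at 14.1, 13.7 and 14.98 CPM with DMSO and 23.5, 35.3 and 26.5 CPM with azoramide, again without overlap. Id1 rose by 0.77 but did not pass without azoramide library 2 (edgeR adjusted p = 0.0501), and Smad9 did not pass with library totals, without any 1 of DMSO libraries 1 and 3 or without azoramide library 2 (edgeR adjusted p up to 0.109). The receptor Acvr1b (-0.54) and the ligand subunit Inhbb (-0.71) fell. Ltbp2, a matrix protein of the family named latent TGF-beta binding proteins, was at 4.01, 5.60 and 9.15 CPM with DMSO and 1.82, 1.38 and 1 CPM with azoramide. Its fall was 2.16 on the log2 scale (SE 0.31, edgeR adjusted p = 4.52e-05). The genes named next were taken singly from the 12 largest falls without overlap and not as members of a list. Insrr also stands on the lists of incretin and other receptors and of insulin receptor signalling, and is counted there. The receptor kinase Kit was at 11.2, 10.7 and 11.8 CPM with DMSO and 4.05, 3.86 and 4.89 CPM with azoramide. Insrr, a relative of the insulin receptor, was at 222, 169 and 279 CPM with DMSO and 76.5, 59.02 and 64.5 CPM with azoramide. Cntfr, the receptor for ciliary neurotrophic factor, was at 29.5, 56.3 and 33.01 CPM with DMSO and 17.3, 13.9 and 14.4 CPM with azoramide. The groups did not overlap in any of the 3, and their log2 fold changes were -1.40 (SE 0.18, edgeR adjusted p = 9.88e-06), -1.74 (SE 0.31, edgeR adjusted p = 0.00339) and -1.38 (SE 0.32, edgeR adjusted p = 0.0102). Fgfr4, a fibroblast growth factor receptor, fell by 1.36 on the log2 scale (SE 0.37, edgeR adjusted p = 0.00746) but did not pass without DMSO library 2 (edgeR adjusted p = 0.0605).

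Scaling by library totals, which lowers the median of all genes, raised the counts of falls in further lists. Over all 15093 genes tested 4943 fell in place of 2985. Of the lists named in this paragraph, only the cholesterol, the receptor and the metallothionein and zinc lists then had a larger share of falls than all genes. In protein synthesis and folding the falls were 5 of the translocon genes in place of 0, 5 of the aminoacyl-tRNA synthetases in place of 2, 9 of the translation factors in place of 3 and 5 of the cytosolic chaperones in place of 1. In metabolism they were 10 of the citrate cycle genes in place of 4, 11 of the lysosomal genes in place of 7, 5 of the fatty acid oxidation genes in place of 3 and 20 of the cholesterol genes in place of 11. Elsewhere they were 14 of the incretin and other receptors in place of 9, 5 of the enzymes and transporters of foreign compounds in place of 2, 8 of the metallothionein and zinc genes in place of 2, 5 of the iron handling genes in place of 2, 6 of the immediate early genes in place of 3 and 7 of the NF-kB targets in place of 1. The aminoacyl-tRNA synthetases then had 7 rises.

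**Figure D4:**
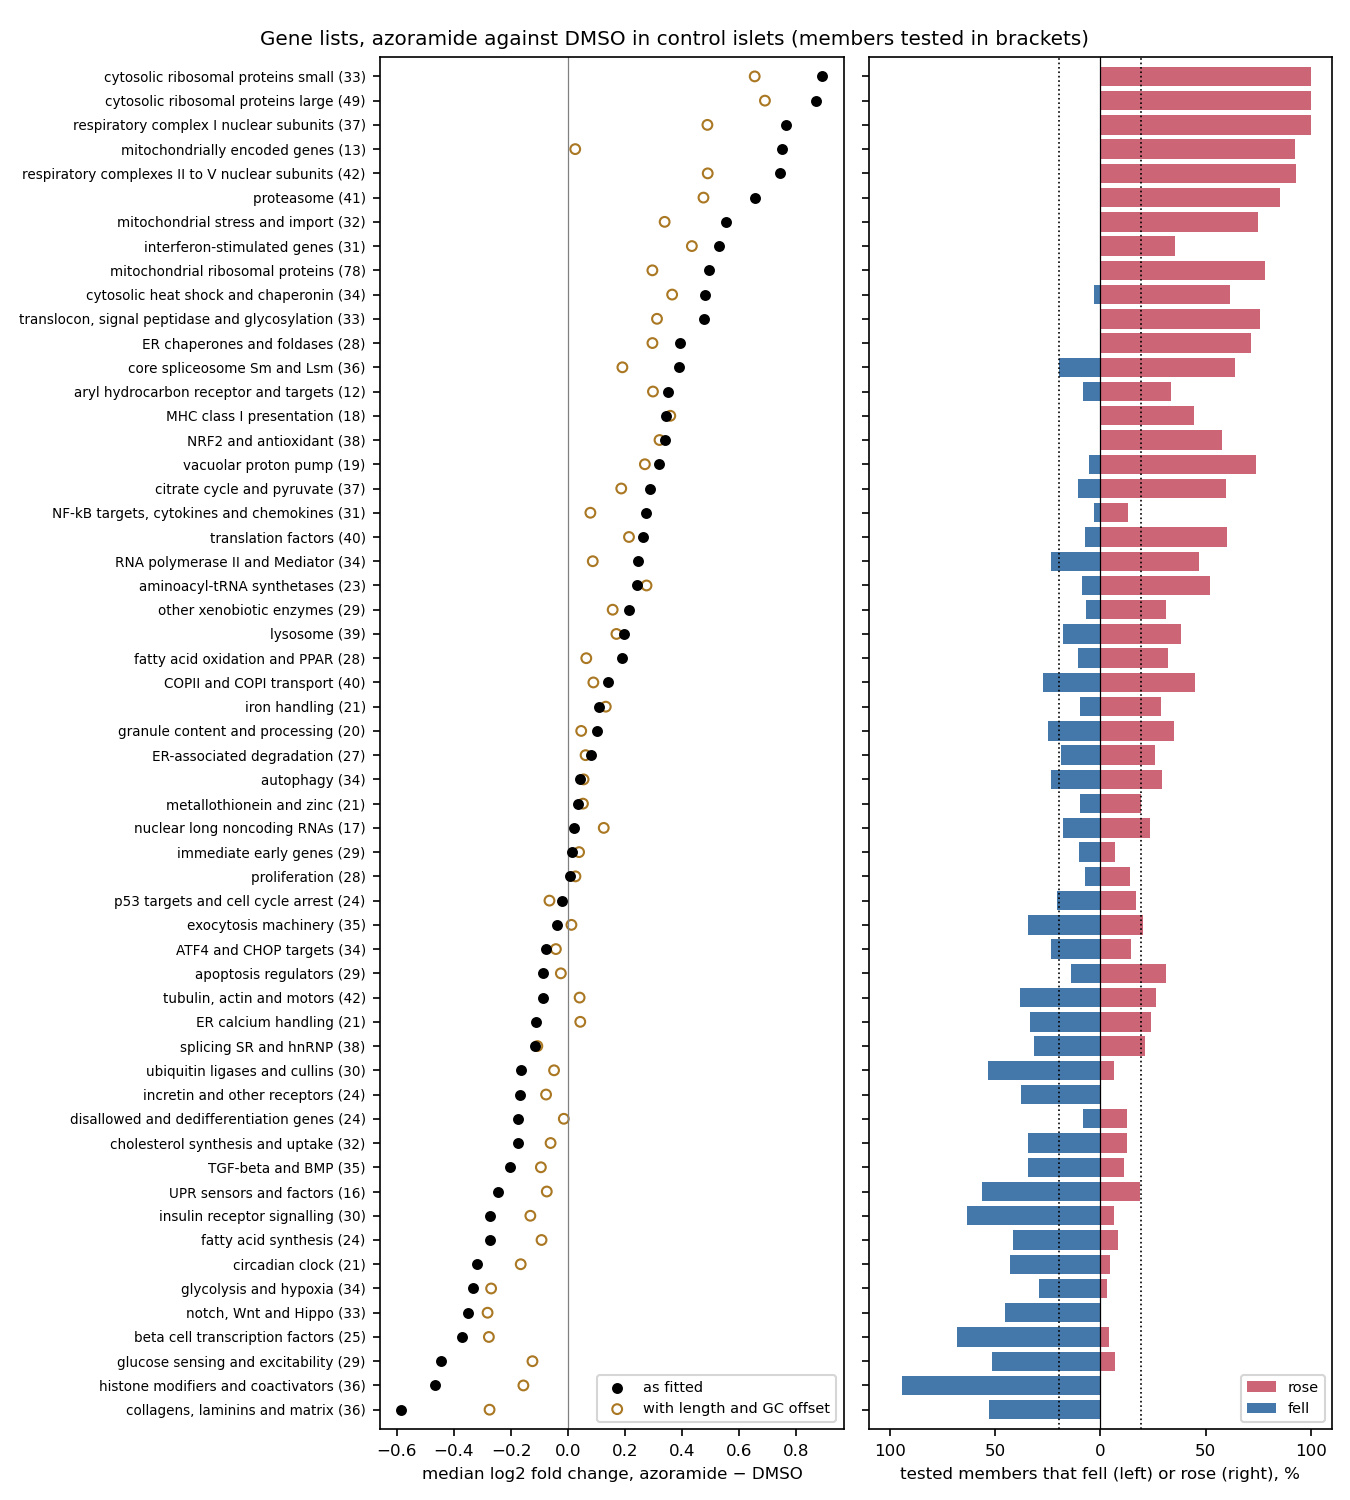
Median log2 fold change of each gene list with 5 or more tested members, cell type markers left out (left; filled points as fitted, open points with the length and GC offset) and the share of its tested members that rose or fell (right; dotted lines at 19.3% and 19.8%, the shares over all genes). The cytosolic ribosomal, respiratory and proteasome lists lie at the top with no falls, and matrix and histone modifier lists at the bottom with no rises.

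Some interferon and antigen presentation genes rose. Of 31 interferon-stimulated genes 11 rose and 0 fell (median 0.53, and 0.43 with the offset), but 5 rose and 1 fell without DMSO library 1, 7 rose without DMSO library 2 and 6 without any 1 of the azoramide libraries. With library totals 5 rose, with the offset 7, and in a fit of the 6 control libraries alone 18. Bst2, which tethers viruses to the cell surface, was at 13.7, 18.2 and 22.2 CPM with DMSO and 39.2, 40.3 and 39.1 CPM with azoramide. Usp18, a brake on interferon signalling, was at 15.9, 17.98 and 19.03 CPM with DMSO and 30.6, 30.7 and 31.6 CPM with azoramide. Both were without overlap, with log2 fold changes of 1.13 (SE 0.20, edgeR adjusted p = 0.00133) and 0.81 (SE 0.16, edgeR adjusted p = 0.0016). Of 18 genes of MHC class I presentation 8 rose and 0 fell, though 5 rose without DMSO library 1, and Calr and Pdia3 among them also stand on the chaperone list. The nonclassical H2-T22 was at 34.8, 33.8 and 36.3 CPM with DMSO and 59.97, 74.1 and 74.1 CPM with azoramide, a rise of 0.99 (SE 0.15, edgeR adjusted p = 0.000338). Erap1, the peptidase that trims presented peptides, rose by 0.48. Macrophage markers stood beside this at 115 to 142 CPM with DMSO and 133 to 173 CPM with azoramide, and 2 of 17, Cd68 (1.04) and Cd14 (0.89), rose, but Cd14 did not pass with the offset, without DMSO library 1 or without azoramide library 1 (edgeR adjusted p up to 0.0676). A single lymphocyte marker passed the filter on low counts and did not change past the threshold. Their part in the interferon and MHC values was not tested. Of 31 NF-kB targets, cytokines and chemokines 4 rose and 1 fell, below the background share of rises, but 9 rose without DMSO library 2.

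Markers of the other islet and blood cells give the setting of these values. The defining markers were present for islet cells, with 140400 to 143100 CPM summed over 13 beta cell markers with DMSO and 152600 to 193500 CPM with azoramide. Most of that sum came from Ins2, Ins1 and Iapp, which are on the list. Of the 13, 5 rose and 4 fell, and the median log2 fold change was -0.22, or -0.35 with the offset. Alpha cell markers summed to 18120 to 18930 and 26440 to 29660 CPM, most of it from Gcg, which is itself on the list. None of 20 acinar markers passed. Of 11 ductal markers 5 rose and 2 fell, at 1553 to 1934 CPM with DMSO and 2195 to 2528 CPM with azoramide. Erythroid markers summed to 12.04 to 16.48 CPM with DMSO and 22.7 to 39.4 CPM with azoramide, and 4 of 5 rose, but 0 rose without DMSO library 1 and at most 3 without any other single library. For the 3 against 3 libraries the smallest p an exact permutation test can give is 0.1, so no summed marker list could pass.

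Other genes with the largest changes belonged to no single group. Nts, neurotensin, was at 1.39, 1.44 and 0.943 CPM with DMSO and 3.58, 4.55 and 4.78 CPM with azoramide. The amino acid transporter Slc6a14 was at 0.946, 1.73 and 0.555 CPM with DMSO and 3.41, 2.54 and 2.56 CPM with azoramide. Egr1, an immediate early transcription factor, was at 22.7, 34.5 and 17.8 CPM with DMSO and 71.95, 76.2 and 58.5 CPM with azoramide. Each rose without overlap, by 1.77 (SE 0.34, edgeR adjusted p = 0.000632), 1.37 (SE 0.36, edgeR adjusted p = 0.00548) and 1.46 (SE 0.27, edgeR adjusted p = 0.00398). Of 29 immediate early genes 2 rose, Egr1 and Crem (0.74), and 3 fell, Myc (-0.45), Ier5 (-0.38) and Per1 (-0.35). Without DMSO library 2, 8 rose. Crem did not pass with library totals, with the offset, in a fit of the 6 control libraries alone, without any 1 of DMSO libraries 1 and 3 or without any 1 of azoramide libraries 1, 2 and 3 (edgeR adjusted p up to 0.118). Per1 turned to a log2 fold change of 0.03 with the offset, and Myc, whose groups overlapped, did not pass in a fit of the 6 control libraries alone, without any 1 of DMSO libraries 1 and 2 or without any 1 of azoramide libraries 1 and 3 (edgeR adjusted p up to 0.154). Downward, Trpm2, a calcium channel of the plasma membrane, was at 15.6, 6.39 and 12.5 CPM with DMSO and 2.35, 4.15 and 3.45 CPM with azoramide. Myrip, which links granules to myosin, was at 5.62, 5.70 and 5.99 CPM with DMSO and 1.41, 2.82 and 2.001 CPM with azoramide. Tcp11 was at 3.79, 5.35 and 4.72 CPM with DMSO and 1.88, 1.38 and 1 CPM with azoramide. In all 3 the groups did not overlap, and the log2 fold changes were -1.79 (SE 0.36, edgeR adjusted p = 0.00281), -1.47 (SE 0.23, edgeR adjusted p = 8.74e-05) and -1.70 (SE 0.31, edgeR adjusted p = 0.000309). Slc16a3, the lactate exporter MCT4, was at 9.24, 4.16 and 2.11 CPM with DMSO and 1.997, 1.56 and 1.83 CPM with azoramide, with DMSO library 1 far above the rest, and it did not pass with the offset, in a fit of the 6 control libraries alone, without DMSO library 1 or without any 1 of azoramide libraries 2 and 3 (edgeR adjusted p up to 0.088). Without DMSO library 1 its log2 fold change was -0.81 in place of -1.52. Cttnbp2 was at 4.73, 9.81 and 4.60 CPM with DMSO and 42.9, 14.8 and 14.6 CPM with azoramide, with azoramide library 1 far above the rest, and its log2 fold change was 1.91 (SE 0.54, edgeR adjusted p = 0.0258), but it did not pass in a fit of the 6 control libraries alone or without any 1 of DMSO libraries 1 and 3 (edgeR adjusted p up to 0.0864).

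The question whether the control response is particular to control islets was asked with the 5 libraries labelled knockout, 2 with DMSO and 3 with azoramide, which share no library with the control comparison. Zzef1 itself was at 85.4, 109.7 and 96.5 CPM with DMSO and 68.1, 64.3 and 67.4 CPM with azoramide in control islets and fell by 0.55 on the log2 scale (SE 0.08, edgeR adjusted p = 3.46e-05), or by 0.19 with the offset, where it did not pass (edgeR adjusted p = 0.129). In the libraries labelled knockout it was at 79.4 and 83.5 CPM with DMSO and 72.1, 77.7 and 68.7 CPM with azoramide, so this whole-gene level does not separate the labels, and the sources used here do not say which part was deleted. In them 6006 genes (39.8%) passed, and 4733 genes passed in both labels with the same direction, which is 80.3% of the control calls and 78.8% of the others. No gene passed in opposite directions. The length trend was shared as well: the Spearman rho of fold change with exonic length was -0.29 in the libraries labelled knockout and -0.34 in control islets. Its part in the shared calls was not tested. In the test of the difference itself 0 genes (0%) passed with edgeR and 0 with DESeq2. Of the 15093 genes 563 had an unadjusted edgeR p under 0.05, a share below the 0.05 that would be met without any difference. The smallest adjusted edgeR p was 0.999, so the genes named next with an unadjusted p did not pass either. Without DMSO library 2 of the control islets 1 gene, Gm47283, passed. Cyp1a1 rose by 3.47 in control islets and by 2.86 in the libraries labelled knockout (difference 0.61, unadjusted p = 0.0337), and Mt2 by 1.47 and 1.80 (difference -0.33, unadjusted p = 0.0123). Slc16a3 had log2 fold changes of -1.52 and 0.57 in the 2 labels, and Pfkfb3, a regulator of glycolysis, of -0.89 and -0.08, without passing the test of the difference (unadjusted p = 0.00889 and 0.00871). Among the genes of smallest unadjusted p were Taf9, a subunit of transcription initiation complexes (-0.10 and 0.83), and Chaf1a, a chromatin assembly factor (0.43 and -0.70). With the offset the control changes of Taf9 (-0.60, edgeR adjusted p = 0.0115) and Chaf1a (0.72, edgeR adjusted p = 0.0155) passed. The test of the difference still passed 0 genes with the offset.

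**Figure D5:**
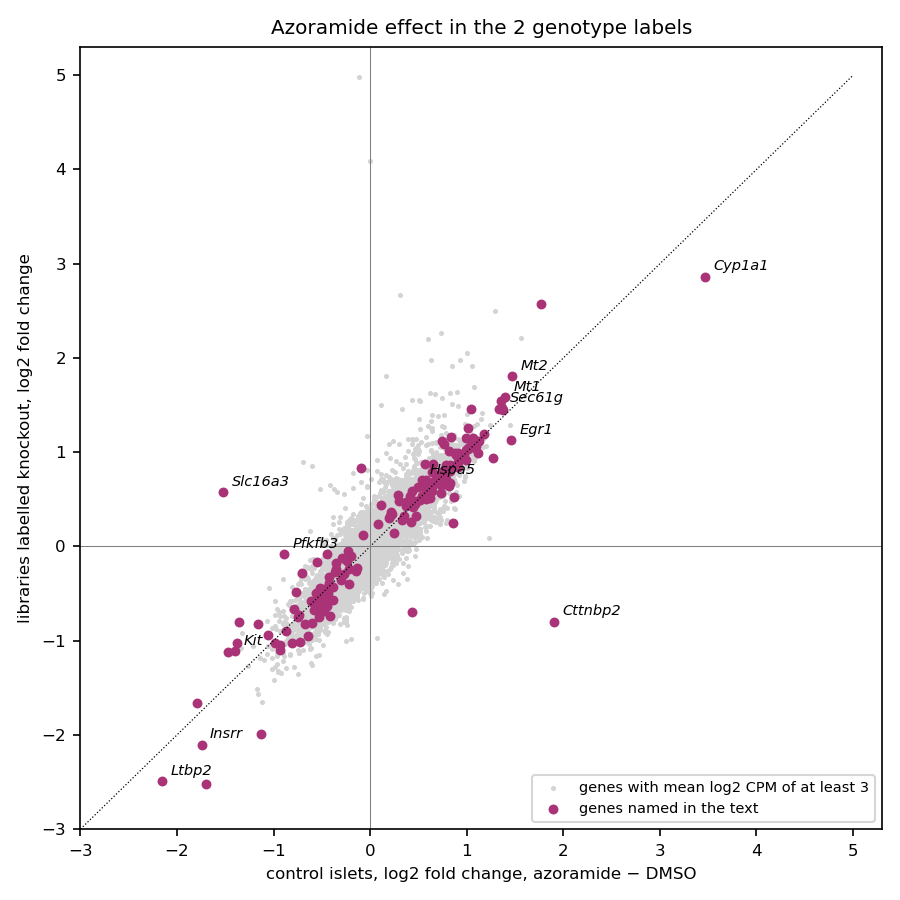
Log2 fold change of azoramide minus DMSO in control islets (horizontal) against the same in libraries labelled knockout (vertical), for 10005 genes with a mean log2 CPM of at least 3 (grey) and the genes named in the text (purple); the dotted line marks equal change. Cyp1a1 lies at 3.47 and 2.86, Ltbp2 at -2.16 and -2.49, and Slc16a3 and Cttnbp2 lie in quadrants of opposite sign.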

How the data were processed

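RNA-seq counts of 11 islet libraries were used, of which the 6 control libraries are described. The authors deposited whole-number read counts per gene for 32285 genes; per the submitters' processing notes the tools named are STAR 2.7.2a and DESeq2 and the build is mm10, while no counting tool, annotation or strand setting is named in them (not given in the sources used here). Counts were tested with edgeR 4.0.16 (R 4.3.3): genes were filtered by group, libraries scaled by TMM and a robust quasi-likelihood fit made over all 11 libraries in 4 groups, which share 1 estimate of the spread. P-values were adjusted by Benjamini-Hochberg over 15093 genes, and 0.05 was the threshold. CPM were computed with the TMM-scaled library totals, and SE is that of the log2 fold change. The offset came from curves fitted per library with mgcv 1.9.3 on exonic length and GC content (GENCODE M21, 15084 genes). Alternatives covered scaling, DESeq2 1.42.0, the filter, the samples fitted, a minimum fold of 1.2, a replicate block and left-out libraries. No 2 libraries of the same group agreed within sampling noise in a chi-square test of their counts.

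The members and lists were chosen with earlier results of these data known. Genes named are the 12 largest changes in each direction without overlap between groups, up to 4 members of smallest p per list, further members of small counts, chosen after their values were seen, a set of islet, UPR and xenobiotic genes whatever their result, and genes of smallest p for the difference between labels. Genes holding the ER stress element were added by sequence. Promoters were matched by symbol to the RefSeq table, 11543 of the tested genes having an entry. Some genes that the naming rule gave are not reported here.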

Additional observations from a re-analysis of the deposited data

How the results depend on the processing

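The 5893 called genes became 3460 with the length and GC offset (1366 fell), 3605 with the replicate block and offset together (1464 fell) and 2405 when tested against 1.2-fold (1350 rose, 1055 fell). With library totals 1628 rose and 4943 fell, and 2177 and 5613 genes lay wholly above or below DMSO. The 266 genes at 2-fold became 145 with the offset, 134 with block and offset, 177 against 1.2-fold and 426 without both libraries that stood apart. In libraries labelled knockout the 6006 called genes became 3668 with the offset and 2979 against 1.2-fold. The cause of these moves was not tested, except that a test against 1.2-fold passes fewer genes by construction. Genes differing between the labels numbered 1 with the replicate block (Reg3a) and 6 without both libraries that stood apart (Rgs17, Serping1, Rgs2, Lgi2, Ang and Gm47283).

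Leaving out 1 control library at a time gave 4820 to 6016 called genes (2398 to 2963 rose, 2413 to 3053 fell), 203 to 381 at 2-fold, 5798 to 6507 in libraries labelled knockout and 0 to 1 differing between labels. Same-numbered control libraries had correlations of deviations of 0.121, 0.180 and 0.023, and DMSO library 3 correlated better with azoramide library 1 (0.106), so not every pair was over 0.1 and the numbers were not used to pair the samples. With the replicate block 6004 genes were called, 2972 upward; of the genes named, Sst passed (adjusted p = 0.00539), and Cttnbp2 (0.105), Crem (0.0853) and Ppy (0.0934) did not.

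Signs turned with the offset, and with block and offset together, for Per1 (0.0251 and 0.0321), Sst (-0.0172 and -0.0161), Hmox1 (-0.0545 and -0.0350), Abcc1 (0.1191 and 0.1163), Acly (0.0108 and 0.0110), Eif4g1 (0.0726 and 0.0737) and the median of ER calcium handling (0.0428 and 0.0403). With library totals they turned for Xbp1 (-0.0848), Hmox1 (-0.0591) and the medians of ER-associated degradation (-0.0868) and COPII and COPI transport (-0.0265). Trib3 was at 0.1280 without both libraries that stood apart. Over single left-out libraries Trib3 ran from -0.2764 to 0.1279, Hmox1 from -0.0891 to 0.2515 and the median of apoptosis regulators from -0.1697 to 0.0068. Of 288 genes given by the naming rule 199 kept direction and call in every setting. Depth limits the genes under the count filter, which were not tested.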
